A study of Danio rerio with 45 samples.

Results

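Mitochondrial ribosomal protein genes are the nuclear genes for the proteins of the mitochondrial ribosome, named mrpl for the large and mrps for the small subunit. They were taken by name: every row of the expression table whose symbol starts with mrpl or mrps and a number, in either case, that names 1 gene only and reached 1 FPKM (sequenced fragments scaled for transcript length and library size) in at least 3 libraries. Of 31966 rows, 75 had such a name and 71 reached the level. The mitochondrial ribosome translates the few proteins that mitochondrial DNA still encodes, all of them parts of the respiratory chain or of ATP synthase. Its RNAs come from mitochondrial DNA, whereas its proteins are made in the cytosol and imported, so they depend on nuclear transcripts. An early fish embryo inherits mitochondria, ribosomes and many of these transcripts from the egg, and replaces the inherited transcripts with its own once its genome is switched on.

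Whole zebrafish embryos of strain AB/PS were profiled by stranded RNA sequencing of total RNA depleted of ribosomal RNA. The groups were WT embryos, embryos given a morpholino (a synthetic antisense molecule that blocks an RNA) against rad21, which encodes a subunit of the ring-shaped cohesin complex (Rad21 MO), and embryos given one against ctcf, which encodes a DNA-binding partner of cohesin (CTCF MO). They were collected at 5 stages, which are 2.5 and 3.3 hours post fertilisation (hpf), then 4.5 hpf, 5.3 hpf and 10 hpf. The first pair of stages lies before or at the start of genome activation, 4.5 and 5.3 hpf follow it, and 10 hpf is the end of gastrulation. There were 3 libraries in each of the 15 groups, a library was made from a pool of 100 embryos staged by their appearance, and the design asks how loss of either protein changes transcripts around genome activation. The labels do not say whether WT embryos received a control injection, nor that pools came from separate clutches, so the spread that p-values rest on is that of these pools and may be technical. In 1 Rad21 MO library titled 3.3 hpf and 1 titled 4.5 hpf the age label names the other of these stages. The table's columns carry no replicate letter, so it is not known which columns hold them, and every column kept the stage of its name. The Rad21 MO columns named 3.3 hpf had 686.5 to 794.3 FPKM of summed maternal markers (btg4 and buc), and those named 4.5 hpf 356.7 to 518.4. Summed early zygotic markers (blf and vox) stood at 166.7 to 217.1 and 425.2 to 477.3 FPKM. Neither sum overlapped between the stages as named. Within each group libraries are called 0, 1 and 2, as in the table, and values are given in that order.

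Morpholinos can act without lowering the RNA they bind, so transcript levels do not check the knockdown. The transcript rad21a stood at 94.1 to 112 FPKM in the Rad21 MO libraries at 4.5 hpf at 108 to 131.7 in CTCF MO and at 131.9 to 158 in WT. At that stage ctcf stood at 216 to 322 FPKM in CTCF MO, 198 to 289 in Rad21 MO and 367 to 452 in WT. So at 4.5 hpf each transcript lay below all WT libraries in both knockdowns. The same held at 5.3 hpf. There rad21a stood at 144.6 to 165.4 FPKM in Rad21 MO, 156.6 to 160.9 in CTCF MO and 191.1 to 210 in WT. For ctcf the ranges were 233.1 to 239.5 FPKM in CTCF MO, 325.5 to 334.4 in Rad21 MO and 472.9 to 516.5 in WT. At 2.5, 3.3 and 10 hpf rad21a in Rad21 MO and ctcf in CTCF MO overlapped with WT. At 10 hpf ctcf in Rad21 MO, at 87.55 to 103.3 FPKM, lay below WT at 142.6 to 154.5. Depth is unknown in a table of FPKM. The commonest ratio of low values between libraries, a rough guide to how they were scaled, spanned about 2.5-fold over the 45 libraries. Only 15.7% to 27.7% of low genes lay at it, so depth is not read from it. Whole embryos were used, so fewer cells of a type and less RNA per cell cannot be told apart. Lists of markers held 7 of 9 matched enveloping layer genes and 4 of 6 matched yolk syncytial layer genes at 1 FPKM or more in WT at 4.5 hpf.

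The members differed widely in level. In WT the median member had 22.3 FPKM at 2.5 hpf and 43.5 FPKM at 10 hpf. By their mean over the WT stages the highest were mrps25 (55.0 FPKM), a small-subunit protein found only in mitochondrial ribosomes, mrpl12 (50.4 FPKM), the stalk protein that recruits translation factors, and mrpl3 (49.1 FPKM), a core protein near the peptidyl transferase centre. The lowest were mrps22, MRPL53 (1 of 2) and MRPS12 (2 of 2) at 0.301, 1.87 and 2.96 FPKM. The pair MRPS12 and the pair MRPL53 are annotated as copies, and reads of near-identical copies can be split between them, so their separate values are uncertain. By class the median WT level was 24.6 FPKM for 27 large-subunit proteins with a bacterial counterpart, 17.7 for 17 large-subunit proteins found only in mitochondria, 26.2 for 15 small-subunit proteins with a bacterial counterpart and 28.8 for 10 found only in mitochondria. The 71 members lie on 22 chromosomes, with at most 8 on 1 chromosome (chromosome 19).

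The member nearest to the threshold was mrps22, which reached 1 FPKM in 4 libraries, had a highest value of 1.95 FPKM and was listed at 0 in 26 libraries. Next came MRPL53 (1 of 2) with 15 libraries, MRPS12 (2 of 2) with 32, MRPL53 (2 of 2) with 38, MRPL52 with 41 and MRPL42 with 44, and the remaining members reached 1 FPKM in all 45. Just outside lay MRPS30 (2 of 2), which reached 1 FPKM in 2 libraries with a highest value of 2.07. The other 3 names outside were MRPS22 (1 of 2), with a highest value of 0.181 FPKM, and mrps15 and mrps16, both listed at 0 in all 45 libraries. A listed 0 may stand for an estimate that failed, and no absence of the transcript is read from it. The symbols mrpl39 and mrpl44 occur in loci merged with a neighbour, and mrp63, dap3, ptcd3, chchd1, aurkaip1, gadd45gip1 and ICT1 are subunits whose names do not start with mrpl or mrps and a number. mrpl44, an RNase III-like protein near the exit tunnel, is therefore not described.

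On the deposited FPKM scale the members fell in WT before they rose. Their summed level was 1663 ± 30.4 FPKM (SD, n = 3) at 2.5 hpf, 1336 ± 84.0 at 3.3 hpf, 1102 ± 67.2 at 4.5 hpf, 1398 ± 132 at 5.3 hpf and 3263 ± 43.1 at 10 hpf. The lowest of the 5 stage means was at 4.5 hpf in 33 members, at 5.3 hpf in 17 and at 3.3 hpf in 16. The highest was at 10 hpf in 62 members, at 2.5 hpf in 8 and at 5.3 hpf in 1 (mrps18b). The WT libraries at 4.5 hpf lay between 1038 and 1172 FPKM and those at 10 hpf between 3215 and 3299, so these groups did not overlap. As a share of a library's FPKM sum the members made up 0.207% to 0.228% at 2.5 hpf and 0.0886% to 0.105% at 4.5 hpf. The share was 0.0903% to 0.104% at 5.3 hpf and 0.177% to 0.239% at 10 hpf. By share the libraries at 4.5 and 5.3 hpf overlapped, as did those at 2.5 and 10 hpf.

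**Figure D1:**
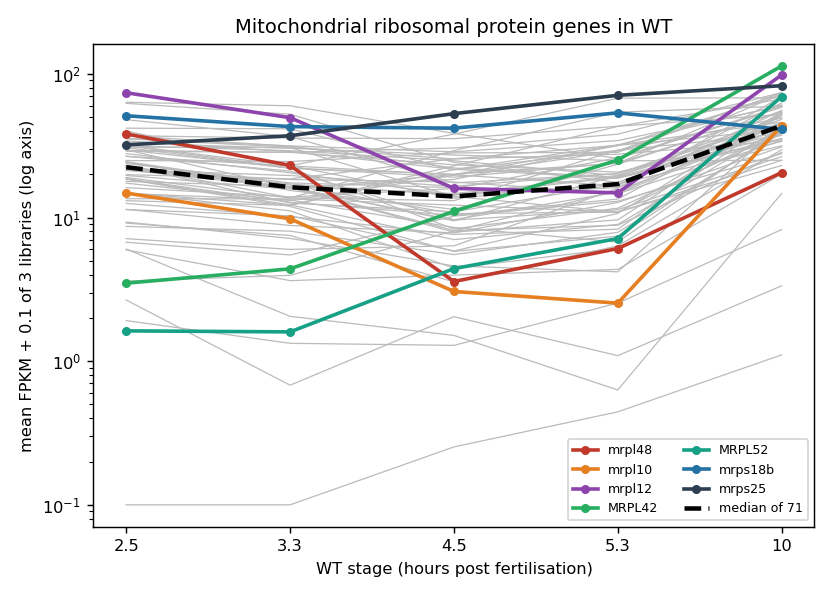
Mean FPKM of each of the 71 members in WT (y axis, log scale, 0.1 added so that 0 can be drawn) against stage in hpf (x axis). Grey lines are single members (mean of 3 libraries), coloured lines 7 named members and the dashed line the median of the 71. The median falls from 22.3 FPKM at 2.5 hpf to 13.9 at 4.5 hpf and climbs to 43.5 at 10 hpf, while mrps18b stays within 41.0 to 53.4 FPKM over all 5 stages.

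**Figure D2:**
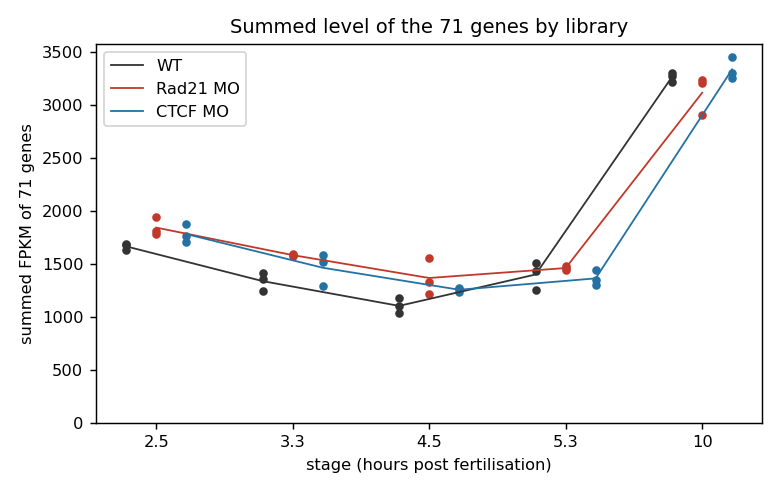
Summed FPKM of the 71 members (y axis) in each library (points) at each stage (x axis, hpf), with lines through the group means for WT, Rad21 MO and CTCF MO. The group mean is lowest at 4.5 hpf in all 3 treatments, and the libraries reach between 2902 and 3451 FPKM at 10 hpf.

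Tests used log2(FPKM + 1) and limma, with p-values adjusted over all genes tested, and a call at adjusted p under 0.05. The scale understates changes of low genes, and every log2 change below is on it, some with a standard error (SE). From 2.5 to 3.3 hpf, 0 of 71 members rose and 4 fell, against 2.06% and 0.402% of all genes tested. These were MRPL18, MRPL55, MRPL1 and MRPL21. MRPL18, a large-subunit protein of the central protuberance, stood at 39.4, 43.4 and 36.8 FPKM at 2.5 hpf and at 22.04, 19.6 and 27.04 at 3.3 hpf, with a log2 change of -0.78 ± 0.15 (SE, limma adjusted p = 0.0118). The groups did not overlap. MRPL55 dropped to 12.5 ± 2.04 FPKM (SD, n = 3) at 3.3 hpf from 22.9 ± 3.45 at 2.5 hpf, with a log2 change of -0.82 ± 0.17 (SE, limma adjusted p = 0.0151). No call of the 4 survived leaving out each library: 1 member was called without WT 2.5 hpf library 0 or 1 or WT 3.3 hpf library 0, 2 without WT 2.5 hpf library 2 and 0 without WT 3.3 hpf library 1. The median change of the members was -0.29, against 0.02 over all genes tested.

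From 3.3 to 4.5 hpf the members parted: 10 rose and 25 fell, against 25.3% and 21.4% of all genes tested. The largest fall was that of mrpl48, a large-subunit protein of the central protuberance (Zv9 chromosome 10, 37928080 to 37935762). Its values were 23.5, 26.6 and 18.8 FPKM at 3.3 hpf and 4.75, 3.27 and 2.44 at 4.5 hpf, and the groups did not overlap. This was a log2 change of -2.44 ± 0.31 (SE, limma adjusted p = 2.52e-05). The stalk lost transcripts as a whole. mrpl12 (chromosome 3, 47698985 to 47733072) went from 48.6, 39.00 and 60.7 to 10.9, 15.4 and 21.3 FPKM, a log2 change of -1.60 ± 0.20 (SE, limma adjusted p = 2.26e-05). mrpl10, at the base of the stalk (chromosome 12, 30344782 to 30347803), went from 7.43, 9.03 and 12.6 to 2.16, 2.59 and 4.12 FPKM, a log2 change of -1.44 ± 0.28 (SE, limma adjusted p = 0.000878). For mrpl11, the third protein there, the means were 13.2 ± 0.714 and 8.43 ± 0.991 FPKM (SD, n = 3), with an adjusted p of 0.0114. All 3 libraries at 4.5 hpf lay under all 3 at 3.3 hpf for each stalk protein. Among the other large falls were mrpl14, a protein of the subunit interface that binds the assembly factor MALSU1 in mammals, with 22.02 ± 1.804 and 8.23 ± 1.72 FPKM, and mrpl19 with 52.2 ± 7.04 and 24.1 ± 4.55 FPKM. mrps30, in mammals a large-subunit protein in spite of its name, fell from 30.6 ± 4.62 to 13.9 ± 2.66 FPKM, mrpl9 from 11.03 ± 1.48 to 4.34 ± 1.68 and MRPL49 from 20.9 ± 3.23 to 9.56 ± 1.58 (all SD, n = 3).

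The members that rose at 4.5 hpf included MRPL42 and mrps6. MRPL42 went from 3.87, 6.05 and 2.95 FPKM to 11.1, 9.01 and 12.8, a log2 change of 1.20 ± 0.36 (SE, limma adjusted p = 0.0151), and the groups did not overlap. mrps6, a small-subunit protein with a bacterial counterpart, had 13.6 ± 2.25 and 29.1 ± 5.29 FPKM (SD, n = 3). For MRPL4, MRPL51, mrpl54, MRPL32, MRPS28, mrpl37, MRPL2 and MRPL52 the log2 changes were 0.94, 0.80, 0.87, 0.75, 0.72, 0.55, 0.45 and 1.23. The call of MRPL52 was lost in 9 of 11 alternatives and those of MRPL42, MRPL4 and MRPL32 in 3 of 11 each. These rises depend on the scale. The FPKM sum of a WT library grew from 770200 ± 40000 at 3.3 hpf to 1164000 ± 48500 at 4.5 hpf (SD, n = 3). With every library rescaled to the same sum, the median of all genes moved from 0.03 to -0.35, 1 member rose and 51 fell, and MRPL2 and mrpl37 changed sign to -0.12 and -0.01. The share of all genes called on that scale is not given here. The falls of mrpl48, mrpl12, mrpl10, mrpl14, mrpl9, mrpl19, mrps30 and MRPL49 held in all 11 alternatives tried. Nuclear genes of oxidative phosphorylation gave 11 higher and 28 lower of 94 tested in the same step, with a median of -0.07. Cytosolic ribosomal proteins gave 64 higher and 4 lower of 79 tested, with a median of 0.92, beside the members' median of -0.24.

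From 4.5 to 5.3 hpf 17 members rose and 2 fell, against 14.1% and 10.2% of all genes tested. mrpl24, on the exit-tunnel side of the large subunit (chromosome 19, 8118326 to 8128670), rose from 6.197, 4.95 and 7.61 to 15.1, 17.9 and 14.5 FPKM, a log2 change of 1.23 ± 0.17 (SE, limma adjusted p = 0.000619). All 3 libraries at 5.3 hpf lay above all 3 at 4.5 hpf. MRPL21 rose from 13.00 ± 1.05 to 29.4 ± 7.36 FPKM, MRPL42 from 10.9 ± 1.87 to 25.03 ± 7.94 and mrpl22 from 11.3 ± 3.05 to 23.4 ± 7.88 (all SD, n = 3). mrpl54, MRPL4, mrps6 and MRPS28 had log2 changes of 0.92, 0.89, 0.87 and 0.80. The call was lost in 8 of 11 alternatives for MRPL42, in 7 for MRPL4, in 4 for mrpl22 and in 1 for mrpl54. mrpl3 fell to 25.1, 24.9 and 26.96 FPKM from 40.7, 35.1 and 39.3, a log2 change of -0.56 ± 0.09 (SE, limma adjusted p = 0.00105). mrpl19 fell to 18.5, 15.4 and 18.5 FPKM from 24.7, 19.3 and 28.3, a log2 change of -0.43 ± 0.14 (SE, limma adjusted p = 0.0424), and this call was lost in 6 of 11 alternatives, among them leaving out WT 4.5 hpf library 0 or 2 or WT 5.3 hpf library 0 or 1. The count of 19 calls dropped to 11 without WT 5.3 hpf library 0 and to 10 without library 1. Rescaling to a common sum left 5 rises and 5 falls and brought the members' median from 0.32 to 0.01. The median of all genes went from 0.02 to -0.18.

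From 5.3 to 10 hpf nearly the whole set rose: 62 of 71 members were higher and 1 was lower, against 37.7% and 31.2% of all genes tested. Their median change was 1.23, beside 0.07 over all genes, and after rescaling to a common sum 1.09 beside -0.02. Cytosolic ribosomal proteins rose as well. Their summed level was 24710 to 34640 FPKM in the WT libraries at 5.3 hpf and 123200 to 152700 at 10 hpf. All 27 large-subunit proteins with a bacterial counterpart rose, with a median of 1.33, as did 15 of 17 large-subunit proteins found only in mitochondria, with a median of 1.53. In the small subunit 13 of 15 with a bacterial counterpart and 5 of 10 found only in mitochondria rose, with medians of 1.17 and 0.69. All 3 stalk genes rose. mrpl10 climbed from 3.85, 2.26 and 1.196 to 46.2, 35.4 and 48.8 FPKM, a log2 change of 3.76 ± 0.28 (SE, limma adjusted p = 4.82e-08), with no overlap. mrpl12 climbed from 15.7, 16.02 and 12.5 to 105, 102 and 88.2 FPKM, a log2 change of 2.66 ± 0.20 (SE, limma adjusted p = 5.64e-08). mrpl11 rose from 6.65 ± 0.721 to 41.4 ± 3.37 FPKM (SD, n = 3). On the deposited scale all 3 stalk genes at 10 hpf stood above their level at 2.5 hpf in every library. The FPKM sum of a WT library was 765600 ± 50800 at 2.5 hpf and 1600000 ± 224000 at 10 hpf (SD, n = 3). These stages were not compared on a common sum, so that ordering may depend on the scale.

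Of the exit-tunnel side, mrpl23 rose from 8.19 ± 2.13 to 52.3 ± 6.17 FPKM, mrpl24 from 15.8 ± 1.82 to 69.1 ± 8.36 and mrpl45, which ties the ribosome to the inner membrane in mammals, from 7.79 ± 1.87 to 38.7 ± 0.878 (SD, n = 3). Around the peptidyl transferase centre and its core, mrpl3 rose by 1.16, mrpl27 by 0.80, MRPL4 by 1.42 and MRPL2 by 0.35 on the log2 scale. mrpl16, a large-subunit protein with a bacterial counterpart (chromosome 1, 393549 to 405632), went from 4.97, 4.21 and 3.09 to 51.4, 41.9 and 41.5 FPKM. The smallest adjusted p of the step, 1.14e-09, belonged to it. Other large rises were those of MRPL47, from 9.53 ± 1.87 to 53.2 ± 4.51 FPKM (SD, n = 3), and of MRPL52, from 6.36, 9.14 and 5.61 to 89.2, 61.95 and 56.9 FPKM. MRPL53 (2 of 2) was listed at 0 in 2 libraries at 5.3 hpf and had 10.7, 17.2 and 15.9 FPKM at 10 hpf. The call of MRPL2 was lost without WT 5.3 hpf library 0 or 2 or WT 10 hpf library 0 or 2, with adjusted p up to 0.267 over its alternatives.

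In the small subunit, mrps7, which helps to shape its head, rose from 17.4, 11.9 and 10.7 to 44.2, 59.4 and 56.9 FPKM between 5.3 and 10 hpf. mrps2 rose by 0.86, mrps5 by 0.92, mrps14 by 1.17 and MRPS35 by 1.49 on the log2 scale, while mrps34 gave 0.35 ± 0.19 (SE), with a limma adjusted p of 0.124. MRPS12 (1 of 2), the decoding-centre protein, rose from 4.25 ± 1.43 to 19.96 ± 2.18 FPKM (SD, n = 3). The low member mrps22 had 1.07, 1.95 and 0 FPKM at 10 hpf and was not called in any step of the WT course. Against WT in the knockdowns it was tested at 10 hpf only, and not called. At the earlier stages too few libraries reached 1 FPKM for a test.

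The 3 mrps18 genes each code for a different position in the mammalian ribosome, and their courses differed. mrps18c, the counterpart of the bacterial protein, went from 24.4 ± 0.195 FPKM at 2.5 hpf to 10.6 ± 1.13 at 4.5 hpf and 41.1 ± 3.88 at 10 hpf. mrps18a, which sits in the large subunit, fell to 18.9 ± 4.04 FPKM at 5.3 hpf and stood at 34.8 ± 8.74 at 10 hpf. mrps18b (chromosome 19, 31668514 to 31694364) was the only member that fell in the last step, from 47.7, 61.8 and 50.7 to 35.2, 48.7 and 38.9 FPKM, a log2 change of -0.38 ± 0.11 (SE, limma adjusted p = 0.00924). WT 5.3 hpf library 0, at 47.7 FPKM, lay below WT 10 hpf library 1, at 48.7, so its groups overlapped. Whether the 3 courses differ was not tested.

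**Figure D3:**
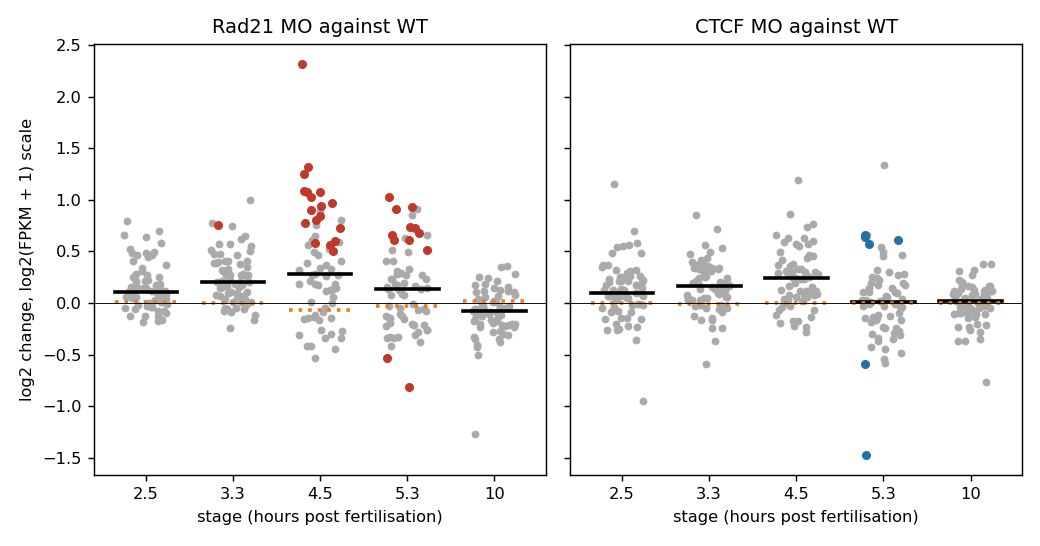
Log2 change of each tested member against WT (y axis, log2(FPKM + 1) scale) at each stage (x axis, hpf), for Rad21 MO (left) and CTCF MO (right). Coloured points passed adjusted p under 0.05 and grey points did not, black bars are the members' median and dotted orange bars the median of all genes tested. The Rad21 MO points at 4.5 hpf reach furthest up, with 18 called members, a median of 0.29 and mrpl48 at 2.32.

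For the knockdowns, a member is said to rise or fall relative to stage-matched WT. The comparisons of Rad21 MO and of CTCF MO share the WT libraries, so what both show at a stage is not independent. Before and at the start of genome activation few members passed the test. At 2.5 hpf limma called 0 of 70 members in Rad21 MO and 0 of 70 in CTCF MO, and 0% of all genes in either. At an unadjusted p under 0.05 there were 15 and 16 members, against 4% and 8.39% of all genes. The authors' deposited table lists 0 members in each, among 70 and 164 listed genes. Here and below the number of genes the authors tested is not given, so their counts of members are not set against other genes. All 3 knockdown libraries lay above all 3 WT libraries for 15 of 70 members in Rad21 MO, against 5.57% of all genes, and for 12 of 70 in CTCF MO, against 6.13%. At 3.3 hpf the same held for 19 of 70 members in Rad21 MO, against 9.11%, and for 15 of 70 in CTCF MO, against 7.48%. The members' summed level at 2.5 hpf was 1777 to 1937 FPKM in Rad21 MO, 1709 to 1870 in CTCF MO and 1629 to 1687 in WT. Both knockdowns thus lay above all WT libraries at that stage. At 3.3 hpf it was 1571 to 1591 FPKM in Rad21 MO, 1290 to 1582 in CTCF MO and 1244 to 1409 in WT, so only the Rad21 MO libraries all lay above WT. At 4.5 hpf both knockdowns did again, with 1217 to 1551 FPKM in Rad21 MO, 1229 to 1269 in CTCF MO and 1038 to 1172 in WT. At 5.3 hpf both overlapped with WT.

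MRPL18 was the member called in Rad21 MO at 3.3 hpf, 1 of 70 against 0.171% of all genes. It had 40.01, 38.6 and 38.6 FPKM in Rad21 MO beside 22.04, 19.6 and 27.04 in WT, a log2 change of 0.76 ± 0.11 (SE, limma adjusted p = 0.045). The call was lost without WT 3.3 hpf library 0 or 1 and without each of the Rad21 MO libraries, with adjusted p up to 0.172 over its alternatives. At an unadjusted p under 0.05 there were 18 members, against 7.94% of all genes. The authors' deposited table lists 4 members among 326 genes, MRPL55, mrps6, MRPL18 and mrpl48. In CTCF MO at 3.3 hpf limma called 0 of 70 members, against 0.0569% of all genes, with 12 at an unadjusted p under 0.05, against 11.1%. The authors' deposited table lists 0 members there, among 89 genes.

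At 4.5 hpf 18 of 69 tested members rose in Rad21 MO and 0 fell, against 10.6% and 10.1% of all genes tested. The median change was 0.29, beside -0.07 over all genes, and 50 of 69 members lay above 0. The called members were mrpl48, mrpl12, mrpl14, mrpl10, mrpl41, MRPS36, mrpl40, MRPL49, MRPL18, MRPL55, mrpl19, mrps18c, mrps34, mrpl17, mrpl27, mrps7, mrps23 and mrpl3. The count was 10 without Rad21 MO 4.5 hpf library 0, whose members summed to 1551 FPKM beside 1328 and 1217 in the other libraries of its group. The calls of mrpl48, mrpl12, mrpl14, mrpl40, MRPS36, MRPL49, MRPL18, mrpl19 and mrpl3 held without each library in turn.

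mrpl48 had the largest change. Its values were 29.8, 18.3 and 16.6 FPKM in Rad21 MO, beside 4.75, 3.27 and 2.44 in WT and 10.3, 6.901 and 10.3 in CTCF MO. Every Rad21 MO library stood above every library of the other groups, and every CTCF MO library above WT. In Rad21 MO this was a log2 change of 2.32 ± 0.27 (SE, limma adjusted p = 0.00211), and in CTCF MO a log2 change of 1.20 ± 0.27 (SE, limma adjusted p = 0.14), which did not pass. In the Rad21 MO course mrpl48 went from 43.2 ± 5.505 FPKM at 2.5 hpf over 38.95 ± 2.63, 21.6 ± 7.16 and 12.6 ± 4.45 to 22.8 ± 3.298 at 10 hpf (SD, n = 3). Its lowest mean there lay at 5.3 hpf, although its libraries at 4.5 and 5.3 hpf overlapped. In CTCF MO the lowest mean lay at 5.3 hpf too, with 5.23 FPKM after 9.18 at 4.5 hpf. WT had its lowest mean at 4.5 hpf. Whether the stage of the low differs between the groups was not tested. In the mammalian ribosome the neighbours of mrpl48 in the central protuberance include mrpl40, mrpl46 and MRPL18. mrpl40 (chromosome 8, 2705132 to 2710894) had 9.29, 8.13 and 6.91 FPKM in Rad21 MO beside 4.08, 3.26 and 3.06 in WT, a log2 change of 1.03 ± 0.20 (SE, limma adjusted p = 0.0106). MRPL18 had 26.9 ± 5.79 and 13.5 ± 2.78 FPKM (SD, n = 3), with an adjusted p of 0.011. mrpl46 had a log2 change of 0.65 and was not called. The proteins of the central protuberance were not tested as a set.

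Of the stalk proteins mrpl12 and mrpl10 passed the test at 4.5 hpf and mrpl11 did not. Whether their changes differ from each other was not tested. mrpl12 had 49.5, 35.2 and 36.01 FPKM in Rad21 MO beside 10.9, 15.4 and 21.3 in WT, a log2 change of 1.32 ± 0.22 (SE, limma adjusted p = 0.00589). mrpl10 had 9.83, 7.59 and 4.97 and 2.16, 2.59 and 4.12 FPKM, a log2 change of 1.09 ± 0.29 (SE, limma adjusted p = 0.0285). For both, all Rad21 MO libraries lay above all WT libraries, and the call of mrpl10 was lost without WT 4.5 hpf library 0 or 1 or Rad21 MO library 0 or 1. mrpl11 had 13.7, 9.86 and 9.49 FPKM in Rad21 MO beside 8.01, 7.72 and 9.56 in WT, with a log2 change of 0.34 ± 0.17 (SE, limma adjusted p = 0.191). Its groups overlapped.

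mrpl14 had 27.2, 16.7 and 19.3 FPKM in Rad21 MO beside 6.34, 9.701 and 8.64 in WT, a log2 change of 1.25 ± 0.22 (SE, limma adjusted p = 0.00692). MRPS36 (chromosome 8, 17682893 to 17687230) was named as a ribosomal protein, but its mammalian counterpart is a subunit of the oxoglutarate dehydrogenase complex. It had 42.6, 40.9 and 29.7 FPKM in Rad21 MO beside 14.5, 20.4 and 17.02 in WT, a log2 change of 1.08 ± 0.17 (SE, limma adjusted p = 0.00506). MRPL49 had 22.4, 17.6 and 18.7 and 7.91, 11.1 and 9.700 FPKM, a log2 change of 0.97 ± 0.19 (SE, limma adjusted p = 0.0107). None of these 3 members had an overlap between the groups. mrpl41 had 15.5 ± 5.35 FPKM in Rad21 MO and 6.92 ± 2.69 in WT (SD, n = 3), with a limma adjusted p of 0.0461, which was lost without 5 of the 6 libraries compared (all but Rad21 MO library 1).

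**Figure D4:**
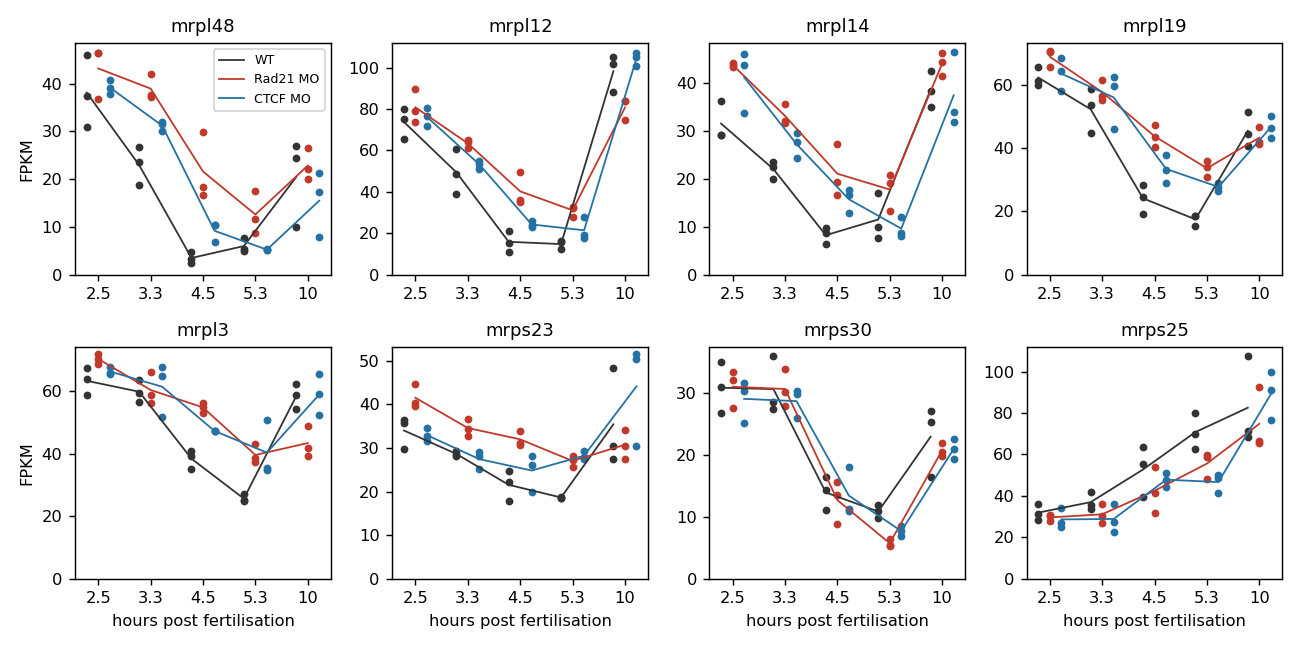
FPKM (y axis) in each library (points) of 8 members at each stage (x axis, hpf), with lines through the group means for WT (black), Rad21 MO (red) and CTCF MO (blue). For mrpl48, mrpl12 and mrpl14 the Rad21 MO points at 4.5 hpf lie above all WT points, for mrps30 they lie below WT at 5.3 hpf, and for mrps25 the CTCF MO points lie below WT at 5.3 hpf.

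Near the catalytic centre, mrpl3 had 56.2, 53.1 and 55.05 FPKM in Rad21 MO at 4.5 hpf and 40.7, 35.1 and 39.3 in WT, a log2 change of 0.50 ± 0.10 (SE, limma adjusted p = 0.00897). mrpl27 had 23.5, 19.2 and 23.5 and 16.4, 13.9 and 12.5 FPKM, a log2 change of 0.60 ± 0.14 (SE, limma adjusted p = 0.0189), which was lost without WT library 1 or 2 or Rad21 MO library 0 or 2. MRPL2 and MRPL4 had changes of -0.45 ± 0.16 and -0.41 ± 0.26 (SE), with adjusted p of 0.0703 and 0.29. mrpl23, mrpl24 and mrpl45 gave 0.39, 0.27 and 0.32, with adjusted p of 0.119, 0.364 and 0.186. In the small subunit mrps34 had 37.4 ± 5.64 FPKM in Rad21 MO and 21.4 ± 2.72 in WT, mrps18c 19.4 ± 3.53 and 10.6 ± 1.13 and mrps7 15.7 ± 1.76 and 10.3 ± 1.87 (SD, n = 3). mrps23 had 30.8, 33.98 and 31.2 FPKM in Rad21 MO beside 17.9, 24.7 and 22.2 in WT. All 4 passed, and for each the call was lost without Rad21 MO library 0. mrps2, mrps5, mrps14, MRPS35, mrps18a, mrps18b and mrps30 gave 0.19, 0.33, 0.18, 0.12, 0.49, -0.05 and -0.14, and none passed.

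By class, 8 of 27 large-subunit proteins with a bacterial counterpart were called in Rad21 MO at 4.5 hpf (median change 0.41), 4 of 16 found only in mitochondria (0.15), 2 of 15 small-subunit proteins with a bacterial counterpart (0.17) and 2 of 9 found only in mitochondria (0.14). Whether the classes differ was not tested. The authors' deposited table lists 22 members as higher and 0 as lower in this comparison, among 3668 genes in all. How those 3668 genes split by direction is not given here. Those 22 include mrpl9, mrpl35, MRPL47, mrpl46, MRPS26 and mrps18a, which limma did not call. FPKM sums differed between the groups, 940000 ± 142000 in Rad21 MO and 1164000 ± 48500 in WT (SD, n = 3). With all libraries rescaled to the same sum 19 members rose and 0 fell, with a median of 0.59 beside 0.19 over all genes. With quantile normalization 15 rose and 0 fell. The shares of all genes called on these other scales are not given here.

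The members were also read by their change in WT between 3.3 and 5.3 hpf, stages that this comparison does not use. Of 20 members whose WT mean fell by at least 0.5 on the log2 scale over that span, 9 rose in Rad21 MO, with a median of 0.70, where 30% of all such genes rose. Of 18 whose WT mean grew by at least 0.5, 0 passed in either direction, with a median of -0.21, where 24.4% of all such genes fell in Rad21 MO. Of 31 between these limits 9 rose, with a median of 0.32, where 2.64% of all such genes rose. From 2.5 to 4.5 hpf the WT means of these 9 fell, by log2 changes between -0.61 (mrpl27) and -1.51 (MRPL18). That span uses the WT libraries at 4.5 hpf, which the knockdown comparison shares. A low WT value at 4.5 hpf thus enters both changes, and the fall does not account for the calls. Of the members between the limits that were not called, some fell as well, such as mrpl20 (-1.60) and MRPS17 (-0.92). Others did not, such as mrpl13 (0.08) and mrps11 (0.15). All genes were not split by that span here. Across the 69 members Pearson's r between both changes was -0.67, and over all genes it was -0.67 too. The members share libraries, and the WT stages share their scaling, so r is given as a description.

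**Figure D5:**
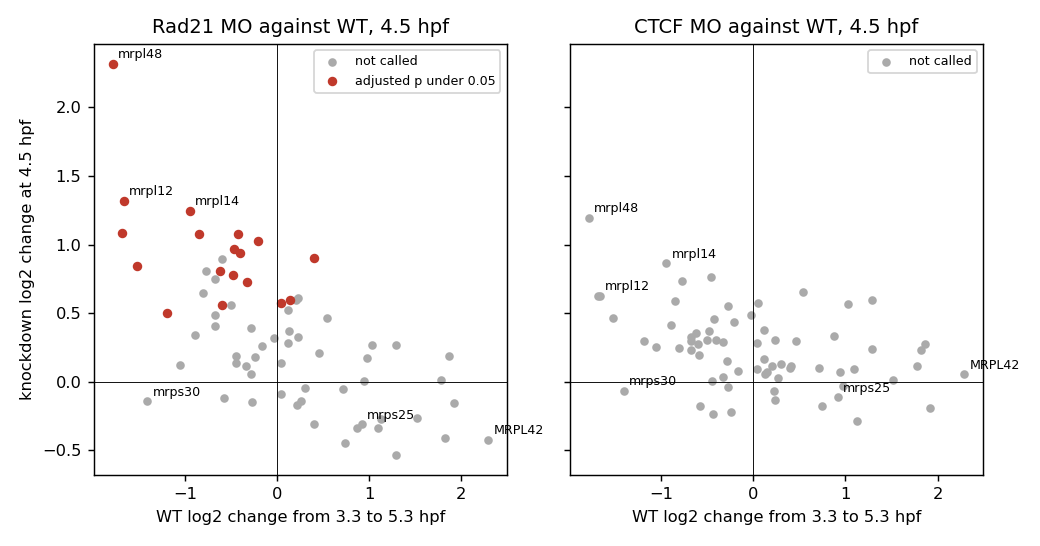
Change against WT at 4.5 hpf (y axis, log2) set against the WT change from 3.3 to 5.3 hpf (x axis, log2), 1 point per tested member, for Rad21 MO (left) and CTCF MO (right), with called members in red. In Rad21 MO mrpl48, mrpl12 and mrpl14 lie at the upper left and MRPL42 at the lower right, with r = -0.67 over 69 members, and in CTCF MO r is -0.41.

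Other readouts moved with these groups. Each library was placed on the line from the WT mean at 3.3 hpf (0) to the WT mean at 5.3 hpf (1) over genes other than the members that change at least 2-fold between them. At 4.5 hpf the WT libraries lay at 0.629 to 0.767, the CTCF MO libraries at 0.538 to 0.714 and the Rad21 MO libraries at 0.398 to 0.518. Summed maternal markers (btg4 and buc) stood at 74.1 to 105 FPKM in WT, 129 to 197 in CTCF MO and 357 to 518 in Rad21 MO. Of 10 germ cell and germ plasm genes 9 reached 1 FPKM in each of these groups, and the sum of the list was 305 to 328 FPKM in WT, 382 to 509 in CTCF MO and 680 to 837 in Rad21 MO. The gene buc is in this list and in the maternal markers, so these sums are not separate readouts. The sum of 9 matched enveloping layer genes was 1482 to 2306 FPKM in WT, 1058 to 1878 in CTCF MO and 902 to 1361 in Rad21 MO, with 7 at 1 FPKM or more in each. The yolk syncytial list gave 196 to 306 FPKM in WT and 147 to 243 in Rad21 MO. The muscle and heart list summed to 3.33 to 5.59 FPKM in WT and 2.34 to 4.33 in Rad21 MO, and the liver and gut list to at most 1.60 and 1.32. The part of these differences in the members' result was not tested.

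In CTCF MO at 4.5 hpf limma called 0 of 69 members, against 0.00671% of all genes. The fit of all 45 libraries called 7, without a share over all genes to set beside that count. At an unadjusted p under 0.05 there were 16 members, against 15.2% of all genes. The authors' deposited table lists mrpl48, mrpl14 and mrpl9 as higher, among 902 genes in all. The median change was 0.24, beside -0.01 over all genes. mrpl14 had 17.7, 16.6 and 12.9 FPKM in CTCF MO, above all WT libraries, with a log2 change of 0.86 ± 0.22 (SE, limma adjusted p = 0.16). In the direct comparison of Rad21 MO with CTCF MO at 4.5 hpf 0 of 69 members passed in either direction, against 1.51% and 1.25% of all genes, and 21 had an unadjusted p under 0.05, against 22.5%. The fit of all 45 libraries called 13, again without a share over all genes, so the members are not set against other genes there. For mrpl48 that difference was 1.13 ± 0.27 (SE), with a limma adjusted p of 0.0586.

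At 5.3 hpf 10 of 69 members rose in Rad21 MO and 2 fell, against 12.2% and 9.9% of all genes tested. The risers were mrpl19, mrpl12, mrps23, mrps18a, mrpl3, mrpl48, mrpl11, mrps18c, mrpl23 and mrpl46, and mrps30 and mrpl37 fell. mrpl19 had 30.9, 35.8 and 34.04 FPKM in Rad21 MO beside 18.5, 15.4 and 18.5 in WT, a log2 change of 0.91 ± 0.11 (SE, limma adjusted p = 0.00127). mrpl12 had 32.3, 32.9 and 28.04 and 15.7, 16.02 and 12.5 FPKM, a log2 change of 1.03 ± 0.18 (SE, limma adjusted p = 0.00431). Both were still above every WT library, as at 4.5 hpf. mrps18a had 30.5, 29.9 and 30.6 FPKM in Rad21 MO beside 21.5, 21.03 and 14.3 in WT, a log2 change of 0.67 ± 0.15 (SE, limma adjusted p = 0.0114). mrps23, a small-subunit protein found only in mitochondria, had 28.1, 25.7 and 27.3 and 18.8, 18.6 and 18.6 FPKM, a log2 change of 0.51 ± 0.09 (SE, limma adjusted p = 0.00518).

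mrps30 went the other way (chromosome 5, 63851255 to 63883852). It had 5.29, 5.500 and 6.398 FPKM in Rad21 MO beside 11.8, 10.9 and 9.796 in WT, with no overlap, a log2 change of -0.82 ± 0.15 (SE, limma adjusted p = 0.00554). In CTCF MO it had 6.84, 8.58 and 7.65 FPKM, also below all WT libraries, with a log2 change of -0.45 ± 0.15 (SE, limma adjusted p = 0.0906). mrpl37, found only in mitochondrial ribosomes, had 19.9, 17.98 and 21.1 FPKM in Rad21 MO beside 30.9, 31.01 and 24.98 in WT, a log2 change of -0.53 ± 0.15 (SE, limma adjusted p = 0.0298), and its adjusted p was up to 0.419 over the alternatives. In WT the mean of mrps30 went from 30.6 ± 4.62 to 10.8 ± 1.02 FPKM between 3.3 and 5.3 hpf, and that of mrpl37 from 13.01 ± 0.758 to 28.96 ± 3.45 (SD, n = 3).

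mrpl11 and mrpl23 also passed at 5.3 hpf. mrpl11 had 10.8 ± 2.07 FPKM in Rad21 MO and 6.65 ± 0.721 in WT, and mrpl23 14.2 ± 2.78 and 8.19 ± 2.13 (SD, n = 3), with limma adjusted p of 0.0307 and 0.0357. mrpl10 gave 0.91 ± 0.30 (SE) with an adjusted p of 0.0593, and mrpl24 and mrpl45 gave -0.26 and -0.33 with 0.175 and 0.345. mrpl48 had 11.7, 17.4 and 8.63 FPKM in Rad21 MO beside 5.32, 7.67 and 4.95 in WT, a log2 change of 0.93 ± 0.24 (SE, limma adjusted p = 0.0239). mrpl3 had 39.6 ± 3.04 and 25.6 ± 1.16 FPKM, mrps18c 18.04 ± 1.72 and 10.8 ± 3.15 and mrpl46 14.3 ± 2.91 and 8.74 ± 2.35 (SD, n = 3). Of the other members named by role, none of which passed, MRPL2, MRPL4, mrpl27, mrps2, mrps5, mrps7, mrps14, mrps34, MRPS35, mrps18b and MRPS36 gave changes from -0.34 to 0.52.

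The 12 calls fell to 7 without Rad21 MO 5.3 hpf library 0 and to 6 without library 1. The calls of mrpl19, mrpl12, mrps23, mrps18a and mrps30 held without each library, and each of the other 7 was lost in 3 to 7 of 11 alternatives. Rescaled to a common sum 25 members rose and 1 fell, with a median of 0.46 beside 0.25 over all genes, where the deposited scale gave 0.14 and -0.03. Quantile normalization gave 0.03. The share of all genes called after rescaling is not given here. The authors' deposited table lists 8 members as higher and 2 as lower among 3525 genes, the latter mrpl37 and mrps30. Of 39 members that WT lost between 2.5 and 4.5 hpf by at least 0.5, 10 rose and 1 fell in Rad21 MO at 5.3 hpf, where 39.1% of all such genes rose. Summed maternal markers at this stage were 37.9 to 46.7 FPKM in WT, 99.7 to 147 in CTCF MO and 215 to 321 in Rad21 MO. On the line from WT at 4.5 hpf (0) to WT at 10 hpf (1) both knockdowns overlapped with WT. The libraries lay at 0.099 to 0.164 in WT, 0.134 to 0.182 in CTCF MO and 0.099 to 0.129 in Rad21 MO. The part of either readout in the result was not tested.

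In CTCF MO at 5.3 hpf 4 of 69 members rose and 2 fell, against 5.07% and 3.87% of all genes tested. mrps23 had 27.9, 27.6 and 29.3 FPKM in CTCF MO and 18.8, 18.6 and 18.6 in WT, a log2 change of 0.57 ± 0.09 (SE, limma adjusted p = 0.00783). mrpl19 had 29.02, 26.4 and 27.7 FPKM in CTCF MO and 18.5, 15.4 and 18.5 in WT, a log2 change of 0.64 ± 0.11 (SE, limma adjusted p = 0.0111). These calls held without each library. mrps18a had 30.7, 29.8 and 29.6 FPKM, a log2 change of 0.66 ± 0.15 (SE, limma adjusted p = 0.0256). mrpl3 had 34.7, 50.9 and 35.5 FPKM, where library 1 stood apart, a log2 change of 0.61 ± 0.15 (SE, limma adjusted p = 0.0334). All CTCF MO libraries lay above all WT libraries in both.

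mrps25, the member with the highest mean level in WT (chromosome 8, 55359734 to 55363179), fell in CTCF MO at 5.3 hpf. It had 41.4, 50.1 and 48.6 FPKM in CTCF MO and 69.8, 79.8 and 62.7 in WT, with no overlap, a log2 change of -0.59 ± 0.13 (SE, limma adjusted p = 0.0253). In Rad21 MO it had 48.03, 59.8 and 58.9 FPKM, with a log2 change of -0.34 ± 0.13 (SE, limma adjusted p = 0.0897). The call of mrps25 was lost after rescaling, after quantile normalization and without WT library 0 or 1 or CTCF MO library 0 or 1, with adjusted p up to 0.176. The other call was MRPS12 (2 of 2), with 0, 0.849 and 0 FPKM in CTCF MO and 2.93, 1.96 and 2.41 in WT and an adjusted p of 0.0321, and its call was lost in 7 of 11 alternatives, with adjusted p up to 0.0986. Its sister locus MRPS12 (1 of 2), also on chromosome 21, gave -0.24 ± 0.21 (SE) with an adjusted p of 0.542. The count of 6 fell to 3 without WT library 0 or 1 or CTCF MO library 0 or 1. The members' median was 0.01, and -0.05 after quantile normalization and 0.25 after rescaling, where all genes stood at 0.22. The authors' deposited table lists 5 members as higher and 2 as lower among 2172 genes, the latter mrps25 and mrpl54.

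Between the knockdowns at 5.3 hpf 1 of 69 members was higher in Rad21 MO and 0 were lower, against 2.75% and 1.75% of all genes. This was mrpl48, with the Rad21 MO libraries at 11.7, 17.4 and 8.63 FPKM, all above the CTCF MO libraries at 5.16, 5.17 and 5.36, a log2 change of 1.07 ± 0.24 (SE, limma adjusted p = 0.0424). The call was lost without any 1 of the 6 libraries compared, with adjusted p up to 0.12 over its alternatives.

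At 10 hpf no member passed the test against WT in either knockdown. In Rad21 MO 0 of 71 passed in either direction, against 0.789% and 2.44% of all genes, with 7 at an unadjusted p under 0.05, against 18.6%. The authors' deposited table lists 0 members among 1496 genes. The smallest limma adjusted p was 0.0519, and 1 member passed without WT 10 hpf library 0. The fit of all 45 libraries called 2, with no share over all genes given. In CTCF MO 0 of 71 passed, against 0.0182% of all genes, with 2 at an unadjusted p under 0.05, against 3.89%. The authors' deposited table lists 0 members among 135 genes. The summed level was 2902 to 3232 FPKM in Rad21 MO, 3251 to 3451 in CTCF MO and 3215 to 3299 in WT. mrpl3 had 49.00, 39.4 and 41.8 FPKM in Rad21 MO beside 62.3, 58.6 and 54.3 in WT, below all WT libraries, with a log2 change of -0.42 ± 0.12 (SE, limma adjusted p = 0.101). Between the knockdowns 0 of 71 members were higher in Rad21 MO and 1 was lower, against 0.843% and 2.54% of all genes. It was mrpl43, a large-subunit protein found only in mitochondria, with the Rad21 MO libraries at 15.5, 18.6 and 17.7 FPKM, all below the CTCF MO libraries at 26.2, 26.3 and 25.4, a log2 change of -0.56 ± 0.12 (SE, limma adjusted p = 0.0367). That call was lost without any 1 of the 6 libraries.

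Whether an effect changed between stages was tested over all 45 libraries. Between 4.5 and 5.3 hpf the effect changed for 0 of 71 members in Rad21 MO, against 0.0792% of all genes, and for 0 of 71 in CTCF MO, against 0.0106%, with 14 and 16 members at an unadjusted p under 0.05, against 6.57% and 7.36% of all genes. Without WT 5.3 hpf library 2, 1 member passed in CTCF MO. From 5.3 to 10 hpf the Rad21 MO effect was lower at the later stage for 6 members and higher for 0, against 9.1% and 5% of all genes. mrpl3 stood 0.61 above WT at 5.3 hpf and 0.42 below it at 10 hpf, and the change of its effect was -1.03 ± 0.15 (SE, limma adjusted p = 1.33e-05). For mrpl12 the effect went from 1.03 to -0.28, and its change was -1.31 ± 0.23 (SE, limma adjusted p = 0.000134). For mrpl19 it went from 0.91 to -0.06, and its change was -0.97 ± 0.17 (SE, limma adjusted p = 0.00014). These 3 held in all 16 alternatives. mrpl28, mrps23 and mrpl17 had changes of -0.58, -0.67 and -0.57. The count was 3 without Rad21 MO 10 hpf library 1 and 10 without WT 5.3 hpf library 2.

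In CTCF MO the effect was lower at 10 than at 5.3 hpf for 2 members and higher for 0, against 2.95% and 1.47% of all genes. mrpl3 stood 0.61 above WT at 5.3 hpf and had 52.4, 58.95 and 65.5 FPKM at 10 hpf, beside 62.3, 58.6 and 54.3 in WT. The change of its effect was -0.60 ± 0.15 (SE, limma adjusted p = 0.0161). That of mrpl19 was -0.60 ± 0.17 (SE, limma adjusted p = 0.0351). The count was 1 without WT 5.3 hpf library 1, WT 10 hpf library 1, CTCF MO 5.3 hpf library 0 or 1 or any CTCF MO library at 10 hpf.

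Partners of the mitochondrial ribosome outside the name rule were read from lists of subunits with other names (6 matched), of mitochondrial translation and assembly factors (27 matched) and of mitochondrial transcription (6 matched). In WT from 3.3 to 4.5 hpf 13 of 27 factors fell and 2 rose, against 21.4% and 25.3% of all genes. From 5.3 to 10 hpf 14 factors rose and 1 fell, against 37.7% and 31.2%. In Rad21 MO at 4.5 hpf 4 of 27 factors, 1 of 6 subunits and 2 of 6 transcription genes rose and 0 fell in each list, against 10.6% higher and 10.1% lower of all genes. At 5.3 hpf 5 factors rose and 1 fell, 2 subunits rose and 0 fell, and 0 transcription genes rose and 1 fell, against 12.2% and 9.9%. The transcription gene that fell was tfam, which packages mitochondrial DNA and starts its transcription, with a log2 change of -0.50 ± 0.16 (SE, limma adjusted p = 0.0477). The transcription genes that rose at 4.5 hpf were POLRMT, with a log2 change of 0.85 ± 0.23 (SE, limma adjusted p = 0.0282), and tfb2m. For tfb2m, another factor of mitochondrial transcription, the log2 change was 0.64 ± 0.19 (SE, limma adjusted p = 0.0384). At 10 hpf tfb2m was lower in Rad21 MO, with a log2 change of -0.63 ± 0.13 (SE, limma adjusted p = 0.0407). No alternatives were tried for these calls of transcription genes.

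The largest of these changes in Rad21 MO was in FASTKD2, which binds the large ribosomal RNA of human mitochondria, with a mean of 28.5 FPKM in Rad21 MO and 10.2 in WT at 4.5 hpf, a log2 change of 1.40 ± 0.14 (SE, limma adjusted p = 0.00163). The subunit chchd1 had a mean of 16.5 FPKM in Rad21 MO and 9.22 in WT at 4.5 hpf, a log2 change of 0.78 ± 0.13 (SE, limma adjusted p = 0.00572). The subunit ptcd3 had 30.7 and 16.7 FPKM at 5.3 hpf, a log2 change of 0.85 ± 0.14 (SE, limma adjusted p = 0.00422). These 3 held in all 11 alternatives, while the calls of RBFA and MTFMT at 4.5 hpf were each lost in 8. In CTCF MO at 5.3 hpf 4 of 27 factors rose, FASTKD2, RBFA, nsun4 and MTFMT, against 5.07% of all genes, and the call was lost in 5 of 11 alternatives for FASTKD2 and in 6 for MTFMT. The large-subunit protein mrp63 is not in the list of subunits and was not counted. Its level at 5.3 hpf was 27.2 to 47.05 FPKM in WT, 21.5 to 30.6 in Rad21 MO and 25.2 to 44.1 in CTCF MO, and these ranges overlapped.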

How the data were processed

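Whole-embryo total RNA was sequenced with stranded, ribosome-depleted libraries, per the labels' protocols. The submitters' processing notes name TopHat2 2.0.9, Cufflinks 2.2.0, Cuffdiff (no version given) and the Zv9 build. The authors deposited 1 table of FPKM values for 45 libraries. They also deposited a table per knockdown and stage of the genes marked significant by Cuffdiff, with columns for group FPKM, log2 fold change, test score, q-value and p-value, per the file headers. Those tables combine the libraries of a group. Coordinates are Zv9 as the authors' table gives them, and whether they count from 0 or 1 is not stated there.

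Genes with at least 1 FPKM in at least 3 libraries of a fit were tested in R 4.3.3 by limma 3.58.1 (moderated variance, mean trend) on log2(FPKM + 1), and p-values were adjusted by Benjamini-Hochberg over all genes tested, with a call under 0.05. A fit used the 9 libraries of a stage, the 15 WT libraries for the WT course, or all 45 for changes of an effect between stages. The procedure was also run on simulated data, and the outcome is not given here. Depth is unknown, and too few low values shared a step between libraries to recover whole reads (15.7% to 27.7% of low genes at the commonest ratio), so precision rests on the spread between 3 libraries. Alternatives were a pseudocount of 0.1, no filter, rescaling each library to a common FPKM sum, quantile normalization, 1 fit of all 45 libraries and leaving out each library. Members named are those with a known role, the 3 highest and 3 lowest in WT, and in each comparison up to 8 called members per direction with the largest change, no overlap between the groups and at least 5 FPKM. Members and lists were chosen with earlier results of these data known.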

Additional observations from a re-analysis of the deposited data

Results flagged for a closer look

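Effects of a knockdown that differed between 5.3 and 10 hpf by a limma test of the difference over all 45 libraries were as follows, as the log2 difference from WT at 10 hpf minus that at 5.3 hpf. In Rad21 MO the value was -1.03 for mrpl3 (adjusted p = 1.33e-05), -1.31 for mrpl12 (adjusted p = 0.000134) and -0.97 for mrpl19 (adjusted p = 0.00014). It was -0.58 for mrpl28 (adjusted p = 0.017), -0.67 for mrps23 (adjusted p = 0.035) and -0.57 for mrpl17 (adjusted p = 0.0444). In CTCF MO it was -0.605 for mrpl3 (adjusted p = 0.0161) and -0.60 for mrpl19 (adjusted p = 0.0351). The effect was lower at 10 hpf for 6 of 71 members in Rad21 MO, against 9.1% of all genes. In CTCF MO it was lower for 2 of 71, against 2.95%. The members are thus not set apart from other genes by these counts. Both knockdowns are compared with the same WT libraries, so their values are not independent. The call of mrps23 was lost in 9 of 16 alternatives, that of mrpl17 in 10 of 16 and that of mrpl19 in CTCF MO in 8 of 16.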

How the results depend on the processing

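No paired analysis was possible because the table's columns carry no replicate letter. Counts below are members called, both directions together. Shares over all genes under these alternatives are not given, so the counts do not set the members against other genes. Rescaling gave 10 for WT 5.3 against 4.5 hpf, 26 for Rad21 MO at 5.3 hpf, 0 for Rad21 MO at 3.3 hpf, 0 for Rad21 MO against CTCF MO at 5.3 and at 10 hpf, and 18 and 1 for the changes of the Rad21 MO and CTCF MO effects from 5.3 to 10 hpf. It turned MRPL2 to -0.124 and mrpl37 to -0.011 in WT 4.5 against 3.3 hpf, and split that step into 1 rise and 51 falls. A pseudocount of 0.1, no filter and quantile normalization each gave 0 for Rad21 MO at 3.3 hpf, no filter also gave 0 for Rad21 MO against CTCF MO at 5.3 hpf, and quantile normalization gave 1 for the CTCF MO effect from 5.3 to 10 hpf. The fit of all 45 libraries gave 7 for WT 3.3 against 2.5 hpf, 3 for Rad21 MO at 3.3 hpf, 2 for Rad21 MO at 10 hpf, 7 for CTCF MO at 4.5 hpf, and 13, 6 and 4 for Rad21 MO against CTCF MO at 4.5, 5.3 and 10 hpf.

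Leaving out 1 library gave 0 to 3 for WT 3.3 against 2.5 hpf, 28 to 32 for 4.5 against 3.3 hpf, 10 to 23 for 5.3 against 4.5 hpf and 60 to 62 for 10 against 5.3 hpf. For Rad21 MO it gave 0 to 1 at 3.3 hpf, 10 to 15 at 4.5 hpf, 6 to 15 at 5.3 hpf and 0 to 1 at 10 hpf, and for CTCF MO 3 to 9 at 5.3 hpf. Between the knockdowns it gave 0 to 1 at 5.3 hpf and 0 at 10 hpf. For changes of an effect it gave 3 to 10 (Rad21 MO, 5.3 to 10 hpf), 1 to 2 (CTCF MO, 5.3 to 10 hpf) and 0 to 1 (CTCF MO, 4.5 to 5.3 hpf). The other counts stayed at 0. Of 168 called values of single members, 32 lost their call on rescaling, the 2 that changed sign included, and 214 of 1056 values with a library left out lost the call. The cause was not tested. With 3 pools a group and unknown depth, a change that misses the threshold is not shown to be absent.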
